A study of Homo sapiens with 4 samples.

Results

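The genes described here encode the machinery that shortens, decaps and degrades messenger RNA in human cells. They are 46 genes, chosen by name: 8 of the CCR4-NOT complex, 3 other deadenylases, 14 of decapping and the LSM ring, 2 exonucleases that work from the 5′ end, 11 of the RNA exosome, 5 of nonsense-mediated decay and 3 binders of AU-rich elements. Of the 46, 45 had at least 1 transcript accession in the authors' table, 38 could be linked to an array probe, and 33 were measured above background, among 6467 named genes measured in the whole series. All samples were MDA-LM2 cells, a subline of the human breast cancer line MDA-MB-231 selected for spread to the lung, taken 48 h after transfection of a capped and polyadenylated RNA with Lipofectamin. That RNA carried tandem copies of an element called sRSE in the decoy group and a scrambled sequence in the control group. Each group held 2 samples, each read on 1 Illumina beadchip. No label tells whether the 2 samples of a group were grown as separate cultures, so p-values speak only to how far these samples scatter, and that scatter may be technical. The comparison asks how transcript levels differ when the decoy RNA is present to occupy the factor that binds the element.

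Most messenger RNAs begin to decay when their poly(A) tail is shortened, first by PAN2 and PAN3 and then by the CCR4-NOT complex. The LSM ring and its partners then bind the shortened end and promote removal of the cap by DCP2, after which XRN1 digests the body from the 5′ end. The exosome digests RNA from the 3′ end, nonsense-mediated decay removes transcripts with premature stop codons through UPF1, and proteins of the ZFP36 family bring CCR4-NOT to AU-rich elements of short-lived transcripts such as those of cytokines. In total RNA from a bulk culture, fewer cells with a transcript and less of it per cell cannot be told apart.

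Median raw signals ran from 76.3 to 77.5 with scrambled RNA and from 81.3 to 83.9 with the decoy, and between 13402 and 13849 of 47323 probes were detected. The breast cancer line markers CD44, MSN, ANXA1 and KRT7 were detected on 4 arrays, whereas the linked KRT18 probe was on 0. No array detected ESR1, PGR, CDH1 or ERBB2, which such cells lack or hold at a low level, nor any of the 3 fibroblast and 3 leukocyte markers that had a probe. With 4 arrays in all, that number sets the precision.

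Genes of the decay machinery moved in both directions. With the decoy, 6 members rose, 6 fell and 21 did not pass the test (limma, Benjamini-Hochberg adjusted p under 0.05 over all 13889 detected probes). LSM4 (1.98-fold), EXOSC4 (1.73-fold), ZFP36L2, CNOT2, EXOSC5 and UPF1 rose, and XRN1 (1.49-fold), UPF2 (1.47-fold), EXOSC6, ZFP36, ZFP36L1 and EDC4 fell. The share of members called, 36.4%, stands beside a background of 42.4% of named genes, of which 20.4% were higher and 22.0% lower. Over all detected probes it was 43.4%, with 21.5% higher and 21.9% lower. The median log2 difference was 0.007 over the 33 members, against -0.03 over the named genes and -0.02 over all detected probes. Both decoy arrays lay above or below both scrambled arrays for 24 of the 33 members, beside 75.5% of named genes.

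The count of falls rested on the arrays and the scaling used. Without sRSE decoy replicate 1 there were 4 rises and 3 falls, and without sRSE decoy replicate 2 there were 5 rises and 3 falls. With each array scaled to its median in place of quantile normalization, 7 members rose and 13 fell, while the whole table turned from 2981 probes higher and 3048 lower to 2546 higher and 4544 lower. LSM4, EXOSC4, CNOT2, XRN1, UPF2 and EXOSC6 kept their call and direction under all 15 alternatives that were run.

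On the raw signals, before any normalization, all 6 members that rose were brighter on both decoy arrays than on both scrambled arrays. Of the 6 that fell, XRN1, UPF2 and ZFP36L1 were dimmer on both decoy arrays, while EXOSC6, ZFP36 and EDC4 overlapped between groups. Among the 21 that did not pass, 12 were brighter, 1 was dimmer and 8 overlapped on the raw scale, in arrays where the decoy's median raw signal was the higher. The 75th percentile of raw signal was 166.05 and 156.6 with scrambled RNA and 207.9 and 192.6 with the decoy. Brighter decoy arrays favour a higher raw order, so that order is not separate support for the rises. The raw order was not counted over all named genes, so these counts do not set the members apart from other genes.

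**Figure D1:**
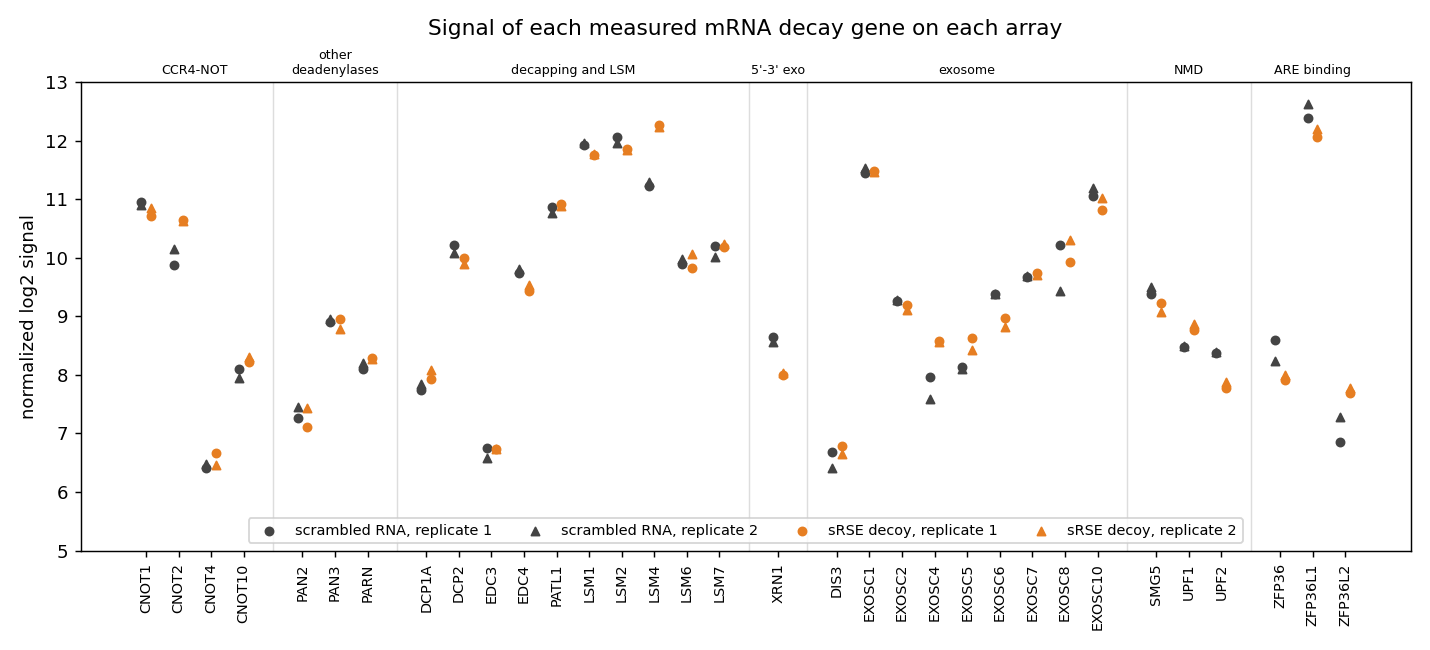
Normalized log2 signal of the 33 measured mRNA decay genes (vertical axis) on each of the 4 arrays, ordered by complex along the horizontal axis; grey marks are scrambled RNA and orange marks are sRSE decoy, circles replicate 1 and triangles replicate 2. The orange marks of LSM4 (12.26 and 12.23) lie above its grey marks (11.22 and 11.30), those of XRN1 (8.003 and 8.04) lie below (8.64 and 8.56), and most other genes have the colours close together.

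**Figure D2:**
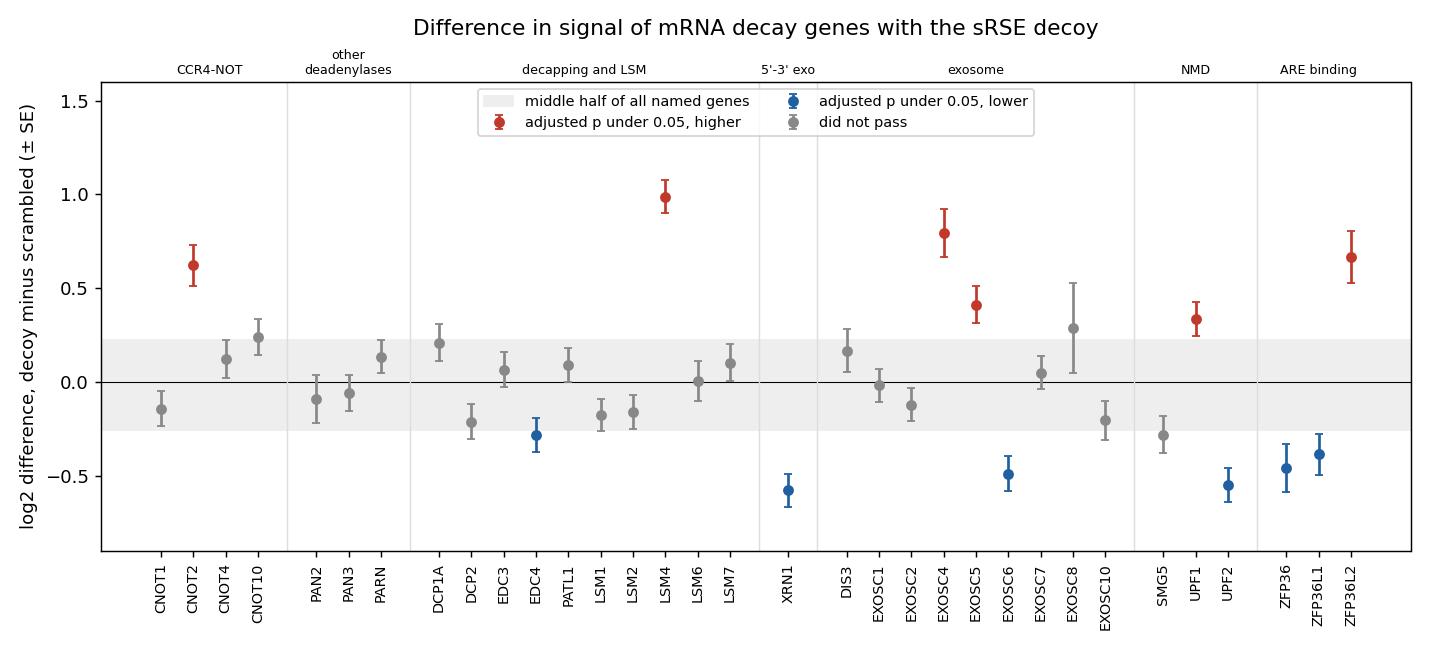
Log2 difference of decoy minus scrambled RNA with its standard error (limma, n = 2 arrays per group) for the 33 measured genes by complex; red points rose, blue points fell and grey points did not pass. The grey band holds the interquartile range of all named genes, from -0.26 to 0.22. Rises and falls both occur in the decapping and LSM, exosome, nonsense-mediated decay and AU-rich element groups.

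Promoters of 2 members that rose and 2 that fell, each from a different group of genes, are shown as a description. The stretches are the last 120 bases before the annotated start, from RefSeq on GRCh38.p14, of the 2 largest rises and the 2 largest falls among called members whose promoter was in the table. EXOSC4 and ZFP36L2 rose more than CNOT2 but had no promoter there. Capitals mark the CCAAT box (CCAAT) and the GC box (GGGCGG), each searched on both strands.
LSM4, chr19:18323077-18323196, minus strand: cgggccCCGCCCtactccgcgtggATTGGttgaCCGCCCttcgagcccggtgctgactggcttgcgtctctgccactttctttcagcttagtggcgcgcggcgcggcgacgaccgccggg
CNOT2, chr12:70243621-70243740, plus strand: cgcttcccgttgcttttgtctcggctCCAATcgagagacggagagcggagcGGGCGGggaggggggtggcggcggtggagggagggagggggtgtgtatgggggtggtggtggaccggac
XRN1, chr3:142448038-142448157, minus strand: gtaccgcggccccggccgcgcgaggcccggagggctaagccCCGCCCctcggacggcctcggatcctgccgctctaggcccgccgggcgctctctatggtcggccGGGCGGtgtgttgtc
UPF2, chr10:12043171-12043290, minus strand: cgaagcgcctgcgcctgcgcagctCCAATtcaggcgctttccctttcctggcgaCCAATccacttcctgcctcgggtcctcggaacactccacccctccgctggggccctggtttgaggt
LSM4 and CNOT2, which rose, and XRN1, which fell, hold a GC box in this window, and LSM4, CNOT2 and UPF2 hold a CCAAT box. In windows of 300 bases, from 250 before the start to 50 after it, 30 of the 39 member promoters (76.9%) held a GC box, against 72.2% of named genes and 44.6% of all 27305 promoters. UPF2 was among the 30, with its GC box outside the 120 bases shown. The 39 include members that were not measured, whereas the named genes were all measured, so the sets are unlike. The CCAAT box was in 17 of the 39 (43.6%), against 38.3% of named genes and 35.7% of all promoters. The ETS motif CCGGAAGT was in 5 (12.8%, against 10.1% of named genes and 4.44% of all promoters). The TATA box TATAAA was in 1, EXOSC8 (2.56%, against 5.63% and 11.95%). Of the other motifs searched, YY1 was in 3 (7.69%, against 3.19% and 1.28%). E2F was in 2 (5.13%, against 2.98% and 1.66%) and NRF1 in 1 (2.56%, against 2.47% and 1.36%).

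The GC content of the same windows had a median of 64.0% over the 27 measured members with a promoter and 65.3% over 5297 named genes. It was 71.3% over the 4 members that rose, 64.3% over the 6 that fell and 62.0% over the 17 that did not pass. Across genes, which are not independent replicates, GC content and log2 difference correlated at r = 0.13 (rho = 0.17) over the 27 members and at r = 0.06 (rho = 0.05) over the named genes. These are descriptions of weak relations over points that share the 4 arrays. For the span of the gene, on a log10 scale, r was -0.02 over the 33 members and -0.05 over the named genes.

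Among genes of deadenylation, CNOT2 rose and no other measured gene passed. CNOT2 encodes a structural subunit of CCR4-NOT that joins CNOT3 on the scaffold CNOT1. Its raw signal was 962 and 1056 with scrambled RNA and 1835 and 1642 with the decoy, and its normalized log2 signal was 9.88 and 10.15 against 10.65 and 10.63. Both decoy arrays stood above both controls, and the rise was 0.62 ± 0.11 on the log2 scale (SE, 2 arrays a group; limma adjusted p = 0.00382). It was 0.40 with median scaling.

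CNOT10, a subunit that binds the start of CNOT1, read 8.10 and 7.95 against 8.22 and 8.31, a log2 difference of 0.24 ± 0.10 that missed the threshold (limma adjusted p = 0.0756). The groups did not overlap. CNOT1 itself, the scaffold of the whole complex, read 10.95 and 10.90 against 10.72 and 10.85, a difference of -0.14 ± 0.09 (limma adjusted p = 0.245). With median scaling CNOT1 read -0.43 and passed, so its call depended on the scaling. CNOT4, a ubiquitin ligase that associates with the complex, was above background on 1 array of each group and read 0.12 ± 0.10. The median of the 4 measured CCR4-NOT genes was 0.18 on the log2 scale.

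The linked probes of CNOT3, a structural subunit, and of the catalytic subunit CNOT7 were not well above background on any array. CNOT3 had raw signals of 84.1 and 88.2 with scrambled RNA and 131.5 and 132.6 with the decoy, and CNOT7 had 118.9 and 118.4 against 153.2 and 145.3. Both were brighter on the decoy arrays in signals too dim to be called present, so no fold is given. The catalytic subunits CNOT6 and CNOT8 had no linked probe.

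The other deadenylases showed no called difference. PAN2, the catalytic subunit of the first deadenylase to act, read -0.09 ± 0.13, its partner PAN3 read -0.06 ± 0.10, and PARN, a deadenylase that trims many small RNAs, read 0.14 ± 0.09 (SE, log2 scale; limma adjusted p from 0.253 to 0.643). PARN had normalized log2 signals of 8.09 and 8.20 with scrambled RNA and 8.29 and 8.27 with the decoy, a small step with no overlap, whereas the arrays of PAN2 and PAN3 overlapped between groups. The median of -0.06 changed sign without sRSE decoy replicate 1 (0.07) and without sRSE decoy replicate 2 (0.02).

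In decapping, 1 of the 5 measured enzymes, activators and scaffolds fell and 4 did not pass. EDC4, the scaffold that brings DCP2 to its activator DCP1A, had raw signals of 877 and 839 with scrambled RNA and 855.5 and 828 with the decoy, which overlap. On the normalized log2 scale it read 9.74 and 9.81 against 9.44 and 9.54, a fall of 0.29 ± 0.09 (SE; limma adjusted p = 0.0362). It did not pass when any 1 of the 4 arrays was left out (differences from -0.34 to -0.23), nor with cyclic loess (-0.26) or without a detection filter (-0.29). EDC4 kept its call in 9 of 15 alternatives, the fewest of any called member.

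DCP2, the decapping enzyme, read 10.22 and 10.09 against 9.99 and 9.90, a difference of -0.21 ± 0.10 (limma adjusted p = 0.109). It passed with median scaling (-0.40) and with an intensity trend in the variance (-0.21). DCP1A, the activator of DCP2, read 7.74 and 7.84 against 7.92 and 8.08, a difference of 0.21 ± 0.10 in the other direction (limma adjusted p = 0.118), and passed with median scaling (0.28). EDC3, an enhancer of decapping, and PATL1, which links the LSM ring to the decapping enzyme, read 0.06 ± 0.09 and 0.09 ± 0.09. PATL1 turned to -0.19 with median scaling, which did not pass. The linked probes of DCP1B, a paralogue of DCP1A, and of the RNA helicase DDX6 were not well above background on any array, with raw signals of 80.1 to 104.0 and 96.5 to 116.1.

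Among the LSM proteins, which form a ring of 7 around the 3′ end of shortened transcripts or, in another make-up, a core of the U6 snRNP, LSM4 rose and the other 4 measured did not pass. LSM4 had raw signals of 2472 and 2349 with scrambled RNA and 5406 and 4770 with the decoy. Its normalized log2 signal was 11.22 and 11.30 against 12.26 and 12.23, with little spread inside either group and a wide gap between them. The rise of 0.99 ± 0.09 (SE, 2 arrays a group; limma adjusted p = 4.87e-04) was larger than that of any other member and lay at percentile 98.6 of all detected probes. With median scaling it was 0.62 and still passed.

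The other subunits of the ring stayed within 0.18 of 0 on the log2 scale. LSM1, the subunit found in the cytoplasmic decay ring and not in the nuclear one, read 11.93 and 11.96 against 11.76 and 11.78, a difference of -0.18 ± 0.09 (limma adjusted p = 0.13). LSM2 read -0.16 ± 0.09, LSM6 0.01 ± 0.11 and LSM7 0.10 ± 0.10. LSM1 and LSM2 passed as lower with median scaling, at -0.55 and -0.54, where LSM6 and LSM7 turned to -0.17 and -0.10 without passing. LSM1 also passed with an intensity trend (-0.18), and LSM6 turned to -0.11 without sRSE decoy replicate 2, which did not pass. LSM3 and LSM5 had no linked probe.

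XRN1, the cytoplasmic exonuclease that digests decapped transcripts from the 5′ end, fell. Its raw signal was 425 and 371 with scrambled RNA and 362 and 337 with the decoy, and its normalized log2 signal 8.64 and 8.56 against 8.003 and 8.04. Both decoy arrays were below both controls on either scale. The fall was 0.58 ± 0.09 on the log2 scale (SE, 2 arrays a group; limma adjusted p = 0.00221) and ran from -0.62 to -0.50 over the alternatives. Its nuclear relative XRN2 had no linked probe.

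The exosome held called genes in both directions within its ring. The ring is built of EXOSC4 to EXOSC9, which have lost catalytic activity in human cells, and is capped by EXOSC1, EXOSC2 and EXOSC3. Of 9 measured exosome genes, 2 rose, 1 fell and 6 did not pass, so 33.3% were called, beside 42.4% of named genes. All 3 called genes were ring subunits, as were 5 of the 9 measured. The median over the 9 was 0.05, and it became -0.09 with median scaling.

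EXOSC4 had raw signals of 279.5 and 211 with scrambled RNA and 504 and 453 with the decoy. Its normalized log2 signal was 7.96 and 7.58 against 8.58 and 8.56, so the controls were spread more than the decoy arrays and both lay below them. It rose by 0.79 ± 0.13 (SE; limma adjusted p = 0.00266). EXOSC5 read 8.13 and 8.11 against 8.63 and 8.43, a rise of 0.41 ± 0.10 (limma adjusted p = 0.0129). It lost its call without sRSE decoy replicate 1 (0.31) or without a detection filter (0.41).

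EXOSC6 went the other way, from normalized log2 signals of 9.38 and 9.37 to 8.97 and 8.81, a fall of 0.49 ± 0.09 (SE; limma adjusted p = 0.00521). Its raw signals, 693 and 628 against 637 and 526, overlapped between groups. EXOSC8 read 10.22 and 9.43 against 9.92 and 10.31, a difference of 0.29 ± 0.24 (limma adjusted p = 0.36) with the least even replicates of any member. Without scrambled RNA replicate 1 it was 0.68 and passed, and without scrambled RNA replicate 2 it was -0.11 and did not. EXOSC7 read 0.05 ± 0.09, and turned to -0.09 with median scaling without passing.

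The measured cap subunits EXOSC1 and EXOSC2 read -0.02 ± 0.09 and -0.12 ± 0.09 on the log2 scale and did not pass, although EXOSC1 did with median scaling (-0.37). The nucleases of the exosome did not pass either. DIS3, which degrades RNA at the base of the ring, read 0.17 ± 0.12, and EXOSC10, the nuclear exonuclease, read -0.21 ± 0.11 and passed with median scaling (-0.51).

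Of the nonsense-mediated decay genes measured, UPF1 rose, UPF2 fell and SMG5 missed the threshold. UPF1, the helicase at the centre of the pathway, had raw signals of 382 and 358 with scrambled RNA and 567 and 543 with the decoy, and normalized log2 signals of 8.47 and 8.49 against 8.77 and 8.86. It rose by 0.33 ± 0.09 (SE; limma adjusted p = 0.0186). The call was lost without scrambled RNA replicate 1 (0.32), sRSE decoy replicate 1 (0.38) or sRSE decoy replicate 2 (0.29), and without a detection filter (0.33), while the value moved little.

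UPF2, the adaptor that joins UPF1 to the exon junction complex, had raw signals of 362 and 335 against 317 and 310, and normalized log2 signals of 8.38 and 8.39 against 7.78 and 7.88. It fell by 0.55 ± 0.09 (SE, 2 arrays a group; limma adjusted p = 0.00276) and passed in every alternative that was run. SMG5, which recruits decay enzymes to phosphorylated UPF1, read 9.38 and 9.49 against 9.23 and 9.08, a difference of -0.28 ± 0.10 (limma adjusted p = 0.0501). It passed as lower with median scaling (-0.39), no background correction (-0.26), an offset of 50 (-0.27), detection on all 4 arrays (-0.28), the authors' normalized intensities (-0.27), an intensity trend (-0.28), a fit over 1 probe per named gene (-0.28) and the mean over a gene's probes (-0.28). SMG6, the endonuclease of the pathway, was not well above background on any array, with raw signals of 99.4 and 94.9 against 143.6 and 145.3. SMG1, the kinase of UPF1, had no linked probe. The median of the 3 measured genes was -0.28, and with SMG6 included, without a detection filter, it was 0.03.

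All 3 binders of AU-rich elements passed, and they differed in direction. ZFP36, also known as tristetraprolin, read 8.59 and 8.23 with scrambled RNA against 7.91 and 8.001 with the decoy, a fall of 0.46 ± 0.13 (SE; limma adjusted p = 0.0223). Its raw signals, 411 and 304 against 343 and 330, overlapped. ZFP36 did not pass without scrambled RNA replicate 1 (-0.28), sRSE decoy replicate 1 (-0.41) or sRSE decoy replicate 2 (-0.50), nor without a detection filter (-0.46).

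ZFP36L1 had raw signals of 5544 and 5935 against 4698 and 4660.0, and normalized log2 signals of 12.39 and 12.63 against 12.06 and 12.19. It fell by 0.39 ± 0.11 (SE; limma adjusted p = 0.0236), and by 0.79 with median scaling. It did not pass without scrambled RNA replicate 2 (-0.27), sRSE decoy replicate 1 (-0.32) or sRSE decoy replicate 2 (-0.45), nor without a detection filter (-0.39). ZFP36L2 rose, from raw signals of 154.7 and 181 to 303 and 290.4 and from normalized log2 signals of 6.85 and 7.28 to 7.70 and 7.77. The rise was 0.67 ± 0.14 (SE; limma adjusted p = 0.00723) and did not pass without a detection filter (0.67).

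The scaling changed more calls than any other setting among members that had not passed. The quantile values and those of cyclic loess lay close together, whereas median scaling lowered the differences of ZFP36L1, LSM1, LSM2, LSM4, EXOSC1 and EXOSC10 and raised those of CNOT4, DIS3 and EDC3. Of the members that passed only with median scaling, CNOT1, LSM2, EXOSC1 and EXOSC10 were lower and DCP1A was higher.

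**Figure D3:**
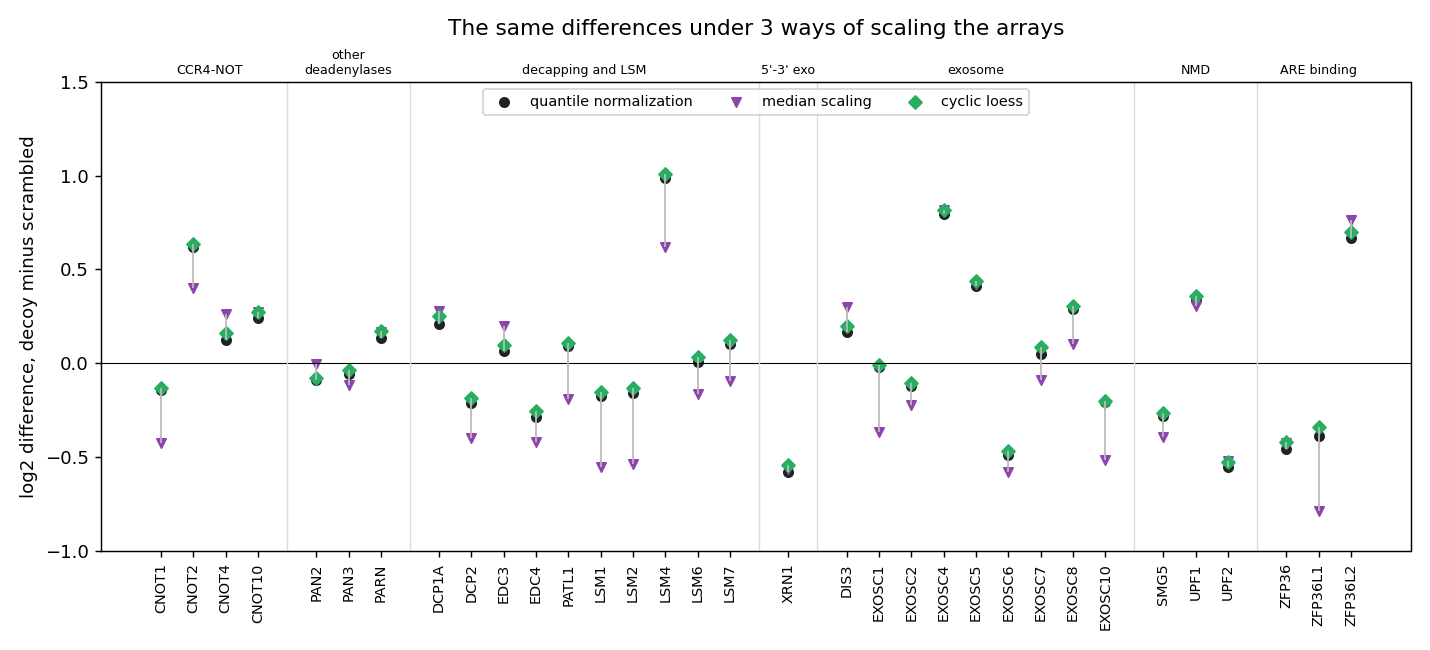
Log2 difference of decoy minus scrambled RNA (vertical axis) for the 33 measured genes by complex, from quantile normalization (black circles), median scaling (purple triangles) and cyclic loess (green diamonds); the grey line joins the 3 values of a gene. LSM1 moves from -0.18 to -0.55 and LSM4 from 0.99 to 0.62 with median scaling, while the cyclic loess values stay near the black circles.

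The authors' deposited table gives a log ratio of decoy over scrambled RNA for every accession, on a compressed scale where the 5th and 95th percentiles of 39747 accessions are -0.0117 and 0.0124. It covers 7 members that had an accession but no linked probe. In the authors' deposited table LSM5 stood at -0.023, percentile 0.79, lower than any other member. The authors' deposited table listed XRN2 at -0.00419 (percentile 21.6), LSM3 at -0.00582 (percentile 14.7) and EXOSC3 at -0.00521 (percentile 17.1). On the higher side the authors' deposited table listed EXOSC9 at 0.00787 (percentile 90.6) and SMG1 at 0.00581 (percentile 86.3), with CNOT8 near the middle at -0.00229 (percentile 33.4). These values have no error of their own.

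Several genes had more than 1 accession in that table, and for EXOSC10 they disagreed. The accession of its measured probe stood at -0.0082 (percentile 8.88) and the other at 0.0137 (percentile 95.7) in the authors' deposited table. In the authors' deposited table CNOT4 stood at 0.00309 for the accession linked to a probe and 0.0121 for a further one, CNOT7 at 0.00202 and 0.00648, and UPF2 at -0.0207 and -0.00352. The 2 accessions of CNOT1 lay together in the authors' deposited table, at -0.00576 and -0.00587. The authors' deposited table put the called members at both ends, with LSM4 at percentile 99.8, EXOSC4 at 99.5, XRN1 at 0.916 and UPF2 at 1.23. The table was made from the same 4 arrays, so it is another reading of them and not a replicate.

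**Figure D4:**
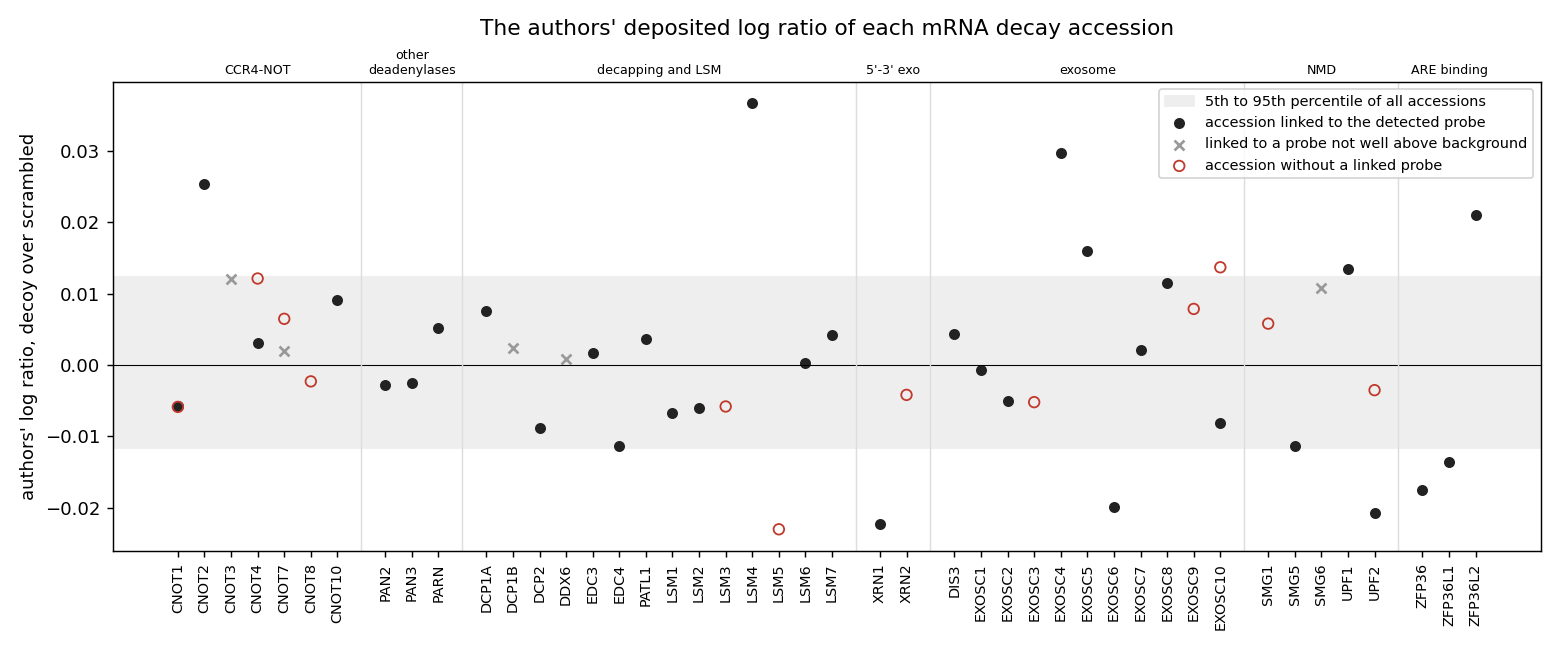
Log ratio of decoy over scrambled RNA as deposited by the authors (vertical axis, no error given) for each accession of the 45 genes found in their table, by complex; black points are accessions linked to a detected probe, grey crosses to a probe not well above background, and open red circles have no linked probe. The grey band runs from the 5th to the 95th percentile of all accessions, with LSM4 above it at 0.0367 and LSM5 below it at -0.023.

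Other genes of the same pathways were likewise split. Of 71 further genes of mRNA decay, 49 were measured, of which 10 rose, 7 fell and 32 stayed uncalled, and their median log2 difference was -0.07. The share called was 34.7%, beside the 42.4% of named genes. Among CCR4-NOT subunits, recruiters and related genes 1 of 13 rose and 0 fell. Among decapping partners 2 of 5 rose and 0 fell, and among exosome cofactors 2 of 13 rose and 4 fell. Among further nonsense-mediated decay factors 3 of 11 rose and 1 fell, and among binders of AU-rich elements 2 of 7 rose and 2 fell. The 1 gene listed with CCR4-NOT that rose was TUT7, a uridyltransferase and not a subunit of the complex, named after its value was seen. With scrambled RNA, TUT7 was not well above background, and it was at least 1.28-fold higher with the decoy. The counts above include TUT7 and the AU-rich element binder ELAVL1. Each passed the detection filter only through the group where it was higher, so their directions followed from the filter.

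SMG9, a partner of the kinase SMG1, rose most among these, from 6.72 and 6.44 to 7.84 and 7.62 on the log2 scale, by 1.15 ± 0.13 (SE; limma adjusted p = 7.54e-04). DCPS, which degrades the cap left after decay from the 3′ end, rose by 0.64 ± 0.13, and CASC3 of the exon junction complex by 0.49 ± 0.10. DIS3L, an exosome nuclease, ZCCHC7, of the nuclear complex that feeds the exosome, and HNRNPD, a binder of AU-rich elements, fell, with log2 differences of -0.53 ± 0.11, -0.39 ± 0.10 and -0.36 ± 0.09. With the decoy, ELAVL1, which stabilises AU-rich transcripts, was not well above background, and on the normalized scale it was at least 1.21-fold lower. The raw signals of ELAVL1, 152.1 and 138.1 with scrambled RNA against 138.1 and 137.9, overlapped, so that bound rests on the normalization. HNRNPD lost its call without sRSE decoy replicate 1 (-0.33) or 2 (-0.39), and ZCCHC7 without sRSE decoy replicate 1 (-0.32) or scrambled RNA replicate 2 (-0.34). HNRNPD was at -0.86 with median scaling, while the mean over its detected probes was -0.01 and did not pass. DCPS, DIS3L, ZCCHC7 and HNRNPD did not pass without a detection filter.

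Decay substrates were also counted beside the machinery. Of 10 measured transcripts known to be sensitive to nonsense-mediated decay, 5 rose, 2 fell and 3 stayed uncalled, around a median log2 difference of 0.14. The share called was 70.0%, beside 42.4% of named genes, whose median was -0.03. TBL2 rose by 0.63 ± 0.09, the stress factor gene ATF4 by 0.74 ± 0.11, the snoRNA host SNHG1 by 0.45 ± 0.09, and GADD45B by 0.36 ± 0.09. The snoRNA hosts SNHG5 and SNHG12 fell, with log2 differences of -0.45 ± 0.10 and -0.42 ± 0.11. GADD45B lost its call without sRSE decoy replicate 1 (0.37) or 2 (0.36), SNHG1 without sRSE decoy replicate 2 (0.42) or with median scaling (0.17), SNHG5 without sRSE decoy replicate 1 (-0.36), and SNHG12 without scrambled RNA replicate 1 (-0.33), without sRSE decoy replicate 1 (-0.34) or with median scaling (-0.30). GADD45B, SNHG5 and SNHG12 did not pass without a detection filter, and SNHG5 was at -0.76 with median scaling.

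Of 10 measured transcripts known as ZFP36 targets, 1 rose, 6 fell and 3 stayed uncalled, around a median log2 difference of -0.37. Here too 70.0% were called, beside the 42.4% of named genes, of which 22.0% were lower, and their median of -0.03. CSF2, CXCL1 and IL1A fell, with log2 differences of -0.93 ± 0.11, -0.94 ± 0.18 and -0.77 ± 0.09 (SE; limma adjusted p from 8.05e-04 to 0.00572). On the decoy arrays CXCL2 was not well above background, and it was at least 1.71-fold lower. It is counted among the 6 that fell, but it passed the detection filter only through the scrambled arrays, so its direction followed from the filter. CSF2, CXCL1, CXCL2 and IL1A encode a colony-stimulating factor, chemokines and an interleukin. The cytokine LIF rose by 0.39 ± 0.10, but did not pass without scrambled RNA replicate 1 (0.29), sRSE decoy replicate 1 (0.36) or sRSE decoy replicate 2 (0.42), nor without a detection filter. LIF was also dim, with raw signals of 128.1 and 133.2 with scrambled RNA against 203.0 and 183.1 with the decoy. Only 1 of the 2 scrambled arrays detected it. CXCL1 did not pass without a detection filter (-0.94). The list was drawn up with earlier results of these arrays known, so its direction is not independent evidence. Transcript levels do not separate synthesis from decay, and no decay rate was measured.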

How the data were processed

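Total RNA of 4 samples was hybridised to Illumina beadchips. The deposited intensities are raw bead signals on a linear scale, per the file headers and the values. The authors deposited a detection p-value beside each intensity, per the file headers. For sRSE decoy replicate 1, 3 such cells repeated the signal and received the median of the 5 probes closest in brightness. The authors' normalized intensities came from lumi (version not given), per the submitters' processing notes. The authors' deposited log ratio per accession has no base in its header, and its values are matched by the log10 of a quotient of group sums after an inverse hyperbolic sine of those intensities.

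No probe annotation was used here. Accessions were tied to probes by recomputing that ratio for every probe, accepting a difference of at most 6e-10 with no rival probe, which tied 32372 of 39747 accessions (81.4%). Over 8 shifted tables the mean was 105 chance ties (0.324% of those made). Names came from RefSeq (GRCh38.p14). A current symbol was found for 16692 tied accessions, covering 15310 genes, and each gene value rests on this tie.

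From raw intensities, background was removed by normexp using detection p-values (offset 16), followed by quantile normalization and log2 (limma 3.58.1, R 4.3.3). The 13889 probes with detection p under 0.01 on at least 2 arrays were fitted by group alone (lmFit, eBayes), and p-values were adjusted over all of them by Benjamini-Hochberg. A gene was read by its brightest detected probe, and each measured member had 1. Where neither array of a group reached detection p under 0.01, the probe counts as not well above background in that group, and its fold is a lower bound set by the lowest detected signal on each array.

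The members and lists were chosen with earlier results of these data known. Array values are given for every called member and, in a complex without a call, for the member of smallest p. Among other listed genes, the 4 called with the smallest p in each direction are named, over the pathway lists and in each substrate list, except 1 that is not reported here. Alternatives changed the scaling, background correction, offset, detection filter, variance trend, replicate block, probe choice and arrays included. Protein length had been planned as a property and was not used here. The span of the gene took its place, chosen after the data were seen.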

Additional observations from a re-analysis of the deposited data

How the results depend on the processing

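Members were refitted under up to 15 alternatives. The 12 called members kept direction and call in 159 of 180 refits and lost the call in 21. The 21 others passed in 18 of 314 refits, and in 11 their difference changed sign without passing. For the other named genes, 253 of 281 refits kept the call and 28 lost it. No called value reversed. With median scaling 2546 probes were higher and 4544 lower, with 7 members higher and 13 lower. Without a detection filter, which tests 47323 probes and 38 members, 1909 probes were higher and 1589 lower, with 5 members higher and 3 lower. Of the members that rose in the main fit, LSM4, EXOSC4 and CNOT2 kept their call there, and EXOSC5, UPF1 and ZFP36L2 did not. The further rises came from members whose linked probes were not well above background on any array. Leaving out 1 array, which leaves a group with 1 sample assumed to vary like the other, gave 1891 to 2592 probes higher and 1834 to 2511 lower, with 4 to 6 members higher and 3 to 4 lower. Median log2 differences with median scaling were 0.27 for CCR4-NOT, -0.0067 for the other deadenylases, -0.18 for decapping and LSM, -0.089 for the exosome and -0.39 for nonsense-mediated decay. For CCR4-NOT the median was 0.22 with cyclic loess, 0.14 with no background correction, 0.15 with an offset of 50, 0.24 with detection on all 4 arrays and 0.15 with the authors' normalized intensities. It was 0.084 for the exosome with cyclic loess and 0.027 for nonsense-mediated decay without a detection filter. Leaving out 1 array moved it between 0.16 and 0.21 for CCR4-NOT, -0.087 and 0.069 for the other deadenylases, -0.022 and 0.068 for decapping and LSM, 0.024 and 0.069 for the exosome, -0.36 and -0.20 for nonsense-mediated decay, and -0.45 and -0.27 for AU-rich element binding. The cause was not tested for these shifts. With the replicate number as a block (replicate block), 2922 probes were higher and 2980 lower, with 6 members higher and 6 lower. The numbers do not pair the samples by any label, and the deviations of same-numbered samples correlated at -0.0081. Signal over background limits CNOT3, CNOT7, DCP1B, DDX6 and SMG6, for which no difference was tested with the filter.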
